A study of Mus musculus with 16 samples.

Results

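The adipocyte genes described here are 8 genes that white fat cells are known for: Adipoq, Lep, Plin1, Plin4, Cidec, Fabp4, Cfd and Pparg. They were found by their symbols in a table of read counts of 17230 genes from whole plantaris muscle, a small ankle plantar flexor of the mouse hindlimb, and all 8 were present and passed the filter on low counts. The study crossed genotype with surgery in mice of 9 to 12 weeks of age. One genotype was Wild Type (WT) and the other TRIM28 mKO (KO), labelled as a knockout of Trim28, which encodes a transcriptional corepressor. The surgeries were a sham operation (Sham) and myotenectomy (MTE), a tendon operation that per the labels' protocols overloads the muscle mechanically. The labels used here name neither the cells that carry the deletion nor the deleted part of Trim28. They also do not say whether each library came from a mouse of its own, so p-values measure only the spread between these libraries, which may be partly technical.

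The 15 libraries comprised 4 of WT Sham, 3 of KO Sham, 4 of WT MTE and 4 of KO MTE. The KO Sham columns could not be matched to labelled samples and are called columns 1 to 3. Depth ran from 21.1 M to 69.2 M total counts. Trim28 was lower in every KO library than in every WT library of the same surgery, at 5.39 to 12.7 CPM (read counts scaled to a common library size) in KO Sham against 27.8 to 49.0 in WT Sham, and at 18.0 to 30.3 in KO MTE against 35.3 to 60.9 in WT MTE. Skeletal muscle markers summed to between 33700 and 92469 CPM in every library. Of these libraries, 2 stood apart: WT Sham library 1 had 3471 CPM of macrophage markers, where libraries 2 to 4 of that group had 294 to 401, and KO Sham column 3 had 20.5% of its counts in mitochondrial genes against 11.3% and 12.2% in columns 1 and 2. That share also moved with surgery: it was 6.21% to 9.01% in the 8 MTE libraries, 13.3% to 14.4% in WT Sham libraries 2 to 4 and 6.95% in WT Sham library 1. Its part in the differences between surgeries given below was not tested.

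White adipocytes store triglyceride in a single large lipid droplet and secrete hormones, and in skeletal muscle they sit between the fibres and along the fascia, as few cells among many. Adipoq encodes adiponectin and Lep encodes leptin, hormones secreted by fat. Cfd encodes adipsin, complement factor D, a serine protease of the alternative complement pathway that fat also secretes. Plin1 and Plin4 encode perilipins, which coat the lipid droplet, and Cidec encodes a protein that helps lipid droplets fuse and grow. Fabp4 encodes a fatty acid binding protein, and Pparg encodes the nuclear receptor that drives adipocyte differentiation. As background, Plin4 is also expressed by muscle fibres, Fabp4 by capillary endothelium and macrophages, and Pparg by macrophages. In RNA of whole muscle, fewer adipocytes and less of a transcript per adipocyte cannot be told apart.

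The 250 bases before the annotated start are shown for the 4 genes that carry most of what follows. Lep had the largest change, Adipoq and Plin1 varied together between libraries, and Plin4 had the highest mean CPM. They are from RefSeq on GRCm38.p6, 5′ to 3′ on the strand of the gene. Capitals mark matches on either strand to TTGCNNAA (a form of the C/EBP site), AGGTCA (the nuclear receptor hexamer), CCAAT or TATAAA.
Lep, chr6:29059971-29060220, plus strand: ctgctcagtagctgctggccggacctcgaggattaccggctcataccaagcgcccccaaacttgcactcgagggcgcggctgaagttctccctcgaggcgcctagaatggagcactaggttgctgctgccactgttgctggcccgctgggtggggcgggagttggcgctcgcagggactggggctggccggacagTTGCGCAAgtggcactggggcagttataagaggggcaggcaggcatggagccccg
Adipoq, chr16:23146286-23146535, plus strand: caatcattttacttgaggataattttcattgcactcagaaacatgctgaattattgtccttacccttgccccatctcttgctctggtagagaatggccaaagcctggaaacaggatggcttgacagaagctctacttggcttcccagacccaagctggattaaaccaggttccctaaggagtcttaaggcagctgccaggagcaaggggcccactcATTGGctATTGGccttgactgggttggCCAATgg
Plin1, chr7:79732777-79733026, minus strand: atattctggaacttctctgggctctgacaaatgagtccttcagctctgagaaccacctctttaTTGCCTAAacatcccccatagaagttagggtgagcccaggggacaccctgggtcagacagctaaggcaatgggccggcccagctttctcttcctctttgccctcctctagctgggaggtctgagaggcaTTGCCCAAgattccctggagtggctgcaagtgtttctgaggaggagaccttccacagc
Plin4, chr17:56109783-56110032, minus strand: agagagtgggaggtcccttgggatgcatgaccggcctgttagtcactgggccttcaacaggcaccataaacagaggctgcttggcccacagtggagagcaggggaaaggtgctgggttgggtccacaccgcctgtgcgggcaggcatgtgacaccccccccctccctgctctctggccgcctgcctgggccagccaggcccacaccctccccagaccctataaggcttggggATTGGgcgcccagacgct

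The motifs were searched in the whole promoter entries of the table, which run from 250 bases before to 50 bases after the start. Of the 8 genes, 7 had an entry, with 10 promoters between them. TTGCNNAA was found in 4 of these 10 promoters, of 4 of the 7 genes, and in 10.8% of all 32851 promoters of the table. The match in Lep begins 55 bases before the start and is the palindrome TTGCGCAA, which was found in 0.183% of all promoters and in none of the other promoters of these genes. Plin1 has 2 matches to TTGCNNAA, and Adipoq has 3 matches to CCAAT or its reverse complement. CCAAT was found in 37.4% of all promoters and in 4 of these 10, of 3 of the 7 genes. AGGTCA was found in 2 of these 10 promoters, both of Pparg, and in 16.3% of all promoters. The direct repeat AGGTCANAGGTCA, the form that PPAR and RXR dimers bind, was found in none of the 10 and in 0.0396% of all. TATAAA was found in a promoter of Pparg and in 13.6% of all promoters. These matches describe the letters only.

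Per kilobase of exon, Plin4 and Fabp4 stood far above the other adipocyte genes. The mean level over the 15 libraries was 66.5 CPM per kb for Plin4 and 36.4 for Fabp4, followed by Cfd at 12.3, Adipoq at 3.18, Pparg at 1.74, Cidec at 1.43, Plin1 at 0.350 and Lep at 0.259. Plin2 and Plin3, the perilipins found in most cell types, stood at 11.5 and 5.87 CPM per kb, Fabp3, the form of muscle fibres, at 292, and Ppara and Ppard, relatives of Pparg, at 2.54 and 0.523. The exon union of Fabp4, 4.489 kb, spans its whole annotated gene. Its level per kb would thus be higher for a shorter transcript, and its rank against Plin4 and Fabp3 is uncertain. Lep rested on few reads, with estimated counts of 4 to 124 per library. At its lowest, 0.0812 CPM in KO MTE library 3, the exact Poisson 95% interval ran from 0.0221 to 0.208 CPM, which covers counting error only.

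Under overload, 7 of the 8 adipocyte genes fell when the response was averaged over both genotypes, where 21% of all genes tested fell. The 8 genes were chosen with earlier results of these data known, so this contrast is a description. The averaged comparison was added after values had been seen, and without KO Sham column 2 it called 4 of the 8. Lep fell most, by 5.18-fold, Adipoq, Plin1, Cidec and Cfd fell between 2.08- and 2.56-fold, Plin4 fell 2.0-fold, and Fabp4 fell 1.28-fold. Pparg did not pass the test, which was a Benjamini-Hochberg adjusted p under 0.05 over all genes tested. Within each genotype the 8 differences were all below 0, as were 47.6% of all genes tested in WT and 48.0% in KO. No gene of the 8 was past the threshold in WT, where 11.2% of all genes tested were called lower. Lep and Plin4 were past it in KO, where 12.7% were. No difference between genotypes passed the test for any of the 8 at either surgery.

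**Figure D1:**
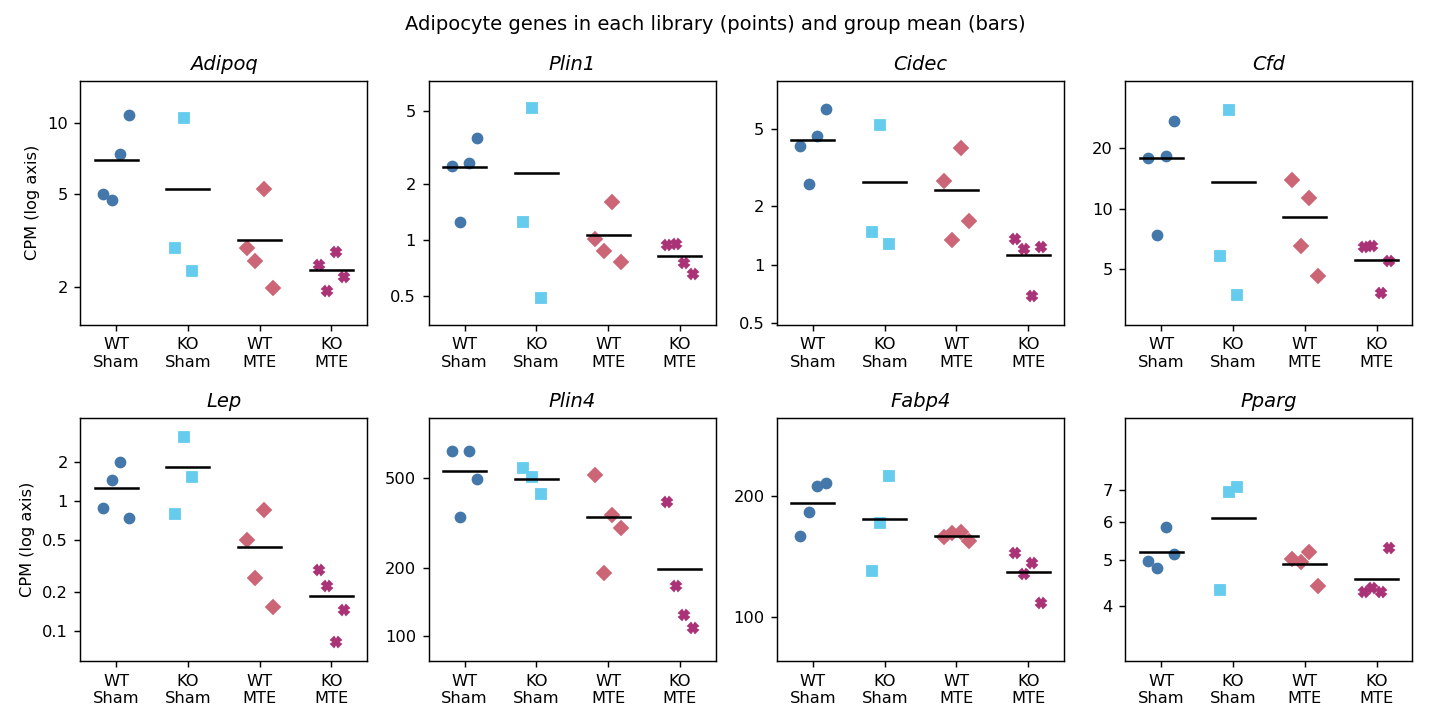
CPM of each adipocyte gene (log axes, a separate range for each gene) in every library of the 4 groups; points are libraries and bars are group means. KO Sham column 2 is far above columns 1 and 3 for Adipoq, Plin1, Cidec and Cfd, and the 4 KO MTE libraries lie below all 3 KO Sham columns for Lep and Plin4.

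Leptin RNA showed the largest difference. Lep (ENSMUSG00000059201, GRCm38 chr6:29060220-29073877, plus strand) measured 0.878, 1.45, 2.01 and 0.734 CPM in WT Sham libraries 1 to 4 and 0.797, 3.14 and 1.53 CPM in KO Sham columns 1 to 3. It measured 0.499, 0.257, 0.853 and 0.152 CPM in WT MTE libraries 1 to 4 and 0.292, 0.222, 0.0812 and 0.145 CPM in KO MTE libraries 1 to 4. The highest KO MTE library was below the lowest KO Sham column, whereas 1 WT MTE library, library 3, reached into the WT Sham range. Group means were 1.27 ± 0.58 CPM in WT Sham (SD, n = 4), 1.82 ± 1.2 in KO Sham (n = 3), 0.440 ± 0.31 in WT MTE (n = 4) and 0.185 ± 0.092 in KO MTE (n = 4). Lep was lower by 3.27 on the log2 scale in KO MTE than in KO Sham (SE 0.60, edgeR quasi-likelihood adjusted p = 0.00239) and by 1.48 in WT MTE than in WT Sham (SE 0.55, adjusted p = 0.0605). Averaged over genotypes, Lep fell by 2.37 on the log2 scale, or 5.18-fold (SE 0.41, edgeR adjusted p = 0.000387).

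Adiponectin RNA was spread widely among the Sham libraries. Adipoq (ENSMUSG00000022878, chr16:23146536-23158028, plus strand) measured 5.0, 4.71, 7.42 and 10.8 CPM in WT Sham libraries 1 to 4 and 2.92, 10.5 and 2.33 CPM in KO Sham columns 1 to 3. After MTE it measured 2.92, 2.57, 5.22 and 1.98 CPM in the WT libraries and 2.46, 1.92, 2.80 and 2.20 CPM in the KO libraries. Columns 1 and 3 of KO Sham were within or near the KO MTE range, and column 2 was close to the highest WT Sham library. Adipoq fell by 1.15 on the log2 scale over both genotypes (SE 0.32, edgeR adjusted p = 0.00974), with differences of -1.14 in WT (adjusted p = 0.0734) and -1.17 in KO (adjusted p = 0.0768).

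The third secreted product, adipsin, followed adiponectin. Cfd (ENSMUSG00000061780, chr10:79890853-79892655, plus strand) measured 17.9, 7.41, 18.3 and 27.5 CPM in WT Sham and 5.82, 31.0 and 3.68 CPM in KO Sham columns 1 to 3. It measured 13.9, 6.52, 11.3 and 4.61 CPM in WT MTE and 6.39, 6.51, 3.80 and 5.47 CPM in KO MTE. Both surgeries overlapped in both genotypes, and KO Sham column 2 was the highest library of all. Averaged over genotypes Cfd fell by 1.13 on the log2 scale (SE 0.41, edgeR adjusted p = 0.0371), with a difference of -0.97 in WT (SE 0.56, adjusted p = 0.229) and -1.29 in KO (SE 0.60, adjusted p = 0.122). Of the 7 calls this was the least stable: leaving out any 1 of WT Sham libraries 3 and 4, WT MTE libraries 2 and 4, the 4 KO MTE libraries or KO Sham column 2 ended it, with an adjusted p of 0.0512 to 0.323.

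Of the genes of the lipid droplet, Plin1 had the widest range within a group. Plin1 (ENSMUSG00000030546, chr7:79720218-79732903, minus strand) measured 2.5, 1.26, 2.60 and 3.55 CPM in WT Sham libraries 1 to 4 and 1.26, 5.16 and 0.490 CPM in KO Sham columns 1 to 3, a 10.5-fold range. It measured 1.02, 0.877, 1.61 and 0.761 CPM in WT MTE and 0.940, 0.949, 0.751 and 0.653 CPM in KO MTE. The lowest and the highest value of the series were thus both in KO Sham. Plin1 fell by 1.36 on the log2 scale over both genotypes (SE 0.38, edgeR adjusted p = 0.0101), with differences of -1.21 in WT (adjusted p = 0.107) and -1.51 in KO (adjusted p = 0.0572).

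Cidec (ENSMUSG00000030278, chr6:113424634-113435760, minus strand) measured 4.10, 2.61, 4.57 and 6.28 CPM in WT Sham and 1.48, 5.24 and 1.29 CPM in KO Sham columns 1 to 3. It measured 2.68, 1.35, 4.01 and 1.67 CPM in WT MTE and 1.36, 1.21, 0.690 and 1.23 CPM in KO MTE. Of the 4 KO MTE libraries, 3 were below both lower KO Sham columns, and library 1 was between them. Cidec fell by 1.06 on the log2 scale over both genotypes (SE 0.33, edgeR adjusted p = 0.0185), with differences of -0.85 in WT (adjusted p = 0.187) and -1.27 in KO (adjusted p = 0.0682).

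Plin4, the abundant perilipin, had a 1.97-fold range within WT Sham and 1.30-fold within KO Sham, and 2.71- and 3.65-fold after MTE. Plin4 (ENSMUSG00000002831, chr17:56100591-56109803, minus strand) measured 659, 335, 660 and 496 CPM in WT Sham and 551, 507 and 423 CPM in KO Sham columns 1 to 3. It measured 514, 190, 342 and 299.6 CPM in WT MTE and 393, 165, 123 and 108 CPM in KO MTE. All KO MTE libraries were below all KO Sham columns, and library 1 was the nearest to them. Among the 8 genes, Lep and Plin4 separated KO MTE from KO Sham in this way, as did 16.2% of all genes tested in the same direction. Plin4 fell by 1.32 on the log2 scale in KO (SE 0.41, edgeR adjusted p = 0.0306), was lower by 0.68 in WT without passing the test (SE 0.39, adjusted p = 0.220), and fell by 1.00 over both genotypes (SE 0.28, adjusted p = 0.0105). Leaving out any 1 KO Sham column or any 1 of KO MTE libraries 2 to 4 ended the call in KO, with an adjusted p of 0.0532 to 0.0812, at differences of -1.42 to -1.12. Its annotated span shares 17 bases with Hdgfl2 on the opposite strand. No source used here says if reads were counted by strand.

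Fabp4 changed little in size. Fabp4 (ENSMUSG00000062515, chr3:10204088-10208576, minus strand) measured 159, 182, 212 and 216 CPM in WT Sham and 130.1, 172 and 225 CPM in KO Sham columns 1 to 3. It measured 158, 162, 163 and 155 CPM in WT MTE and 145, 128, 136 and 108 CPM in KO MTE. Every KO MTE library was below every WT MTE library. Fabp4 fell by 0.36 on the log2 scale, or 1.28-fold, over both genotypes (SE 0.12, edgeR adjusted p = 0.0220), with differences of -0.27 in WT (adjusted p = 0.230) and -0.44 in KO (adjusted p = 0.0671).

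Pparg, the transcription factor among the 8, was the steadiest, with a 1.66-fold range over all 15 libraries. Pparg (ENSMUSG00000000440, chr6:115360951-115490399, plus strand) measured 4.97, 4.80, 5.87 and 5.14 CPM in WT Sham and 4.32, 6.93 and 7.11 CPM in KO Sham columns 1 to 3. It measured 5.01, 4.94, 5.19 and 4.41 CPM in WT MTE and 4.28, 4.36, 4.28 and 5.30 CPM in KO MTE. KO Sham columns 2 and 3 were above all other libraries. The difference averaged over genotypes was -0.25 on the log2 scale (SE 0.13, edgeR adjusted p = 0.118). The unnamed gene model Gm44079 lies within Pparg on the opposite strand.

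**Figure D2:**
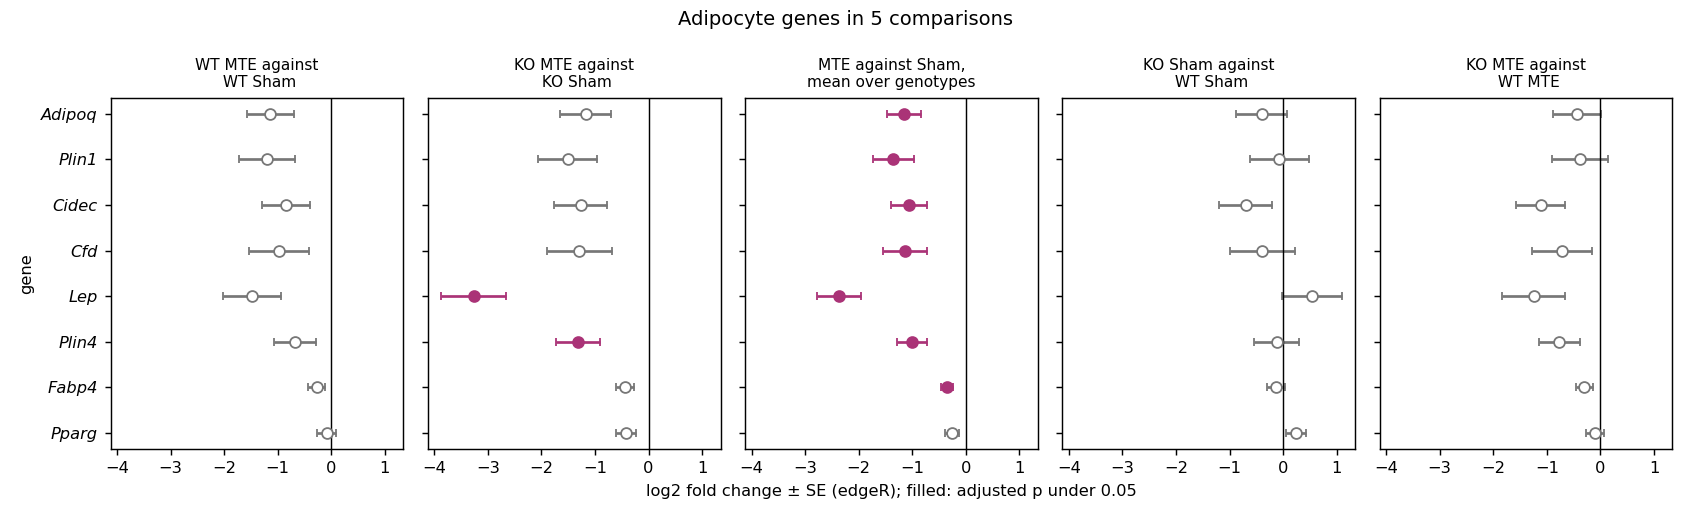
Log2 fold change with its SE for each adipocyte gene in 5 comparisons (edgeR); filled points have an adjusted p under 0.05. In the comparison averaged over genotypes 7 of 8 points are filled, all below 0, where 21% of all genes tested were called lower. The 8 genes were chosen with earlier results of these data known. In both comparisons of genotype none is filled.

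These calls have to be read against how much of the transcriptome moved. In WT, 0 of the 8 adipocyte genes were called by edgeR, where 11.2% of all 17212 genes tested were called lower. The 3 hormone and droplet genes Lep, Adipoq and Plin1 had an unadjusted p under 0.05 there, a share of the 8 near the 37.3% of all genes, and DESeq2 called 3 of the 8 lower against 15.7% of all genes. With 1 library left out, the edgeR count of 0 rose to 2 without WT Sham library 1, WT MTE library 3 or KO Sham column 3, and to 3 without KO Sham column 2. In KO, 2 of the 8 were called lower against 12.7% of all genes. That count was 4 without WT Sham library 1, 5 without KO Sham column 1, and 1, Lep, without KO Sham column 2 or any 1 of KO MTE libraries 2 to 4. The shares of all genes called with a library left out are not given here. For the mean of both genotypes, 7 of 8 were called lower against 21% of all genes. The median log2 fold change of the 8 was -0.91 in WT, -1.28 in KO and -1.09 for the mean, where that of all genes tested was between 0.036 and 0.040. The 3 comparisons use the same libraries, and the averaged one was added after values had been seen, because the authors' table holds a test of the same effect. That table, the authors' deposited table, gives p = 0.000262 for Lep, 0.00382 for Plin4, 0.0109 for Fabp4, 0.0117 for Adipoq, 0.0168 for Cidec, 0.0335 for Plin1, 0.0590 for Pparg and 0.0872 for Cfd for the effect of MTE in a 2-way analysis of variance. These values are headed as p-values and not as FDR, so they are not on the scale of the adjusted p used here. Of the 8 genes 6 were under 0.05, and Cfd, which edgeR called, was not. The share of all genes under 0.05 there is not given here. Between KO Sham and KO MTE the authors' deposited table gives an FDR of 1.41e-06 for Lep and 0.0104 for Plin4.

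A single library, KO Sham column 2, carried much of the response of 4 of these genes. Without it, the difference in KO was -0.17 for Adipoq, -0.15 for Plin1, -0.31 for Cidec and 0.21 for Cfd, while Lep still fell by 2.58 on the log2 scale (edgeR adjusted p = 0.0103) and Plin4 was lower by 1.30 with an adjusted p of 0.0532. Over the 22 alternatives run for Lep and the 23 for Plin4 in this comparison, the adjusted p ranged from 2.29e-06 to 0.0103 and from 0.00261 to 0.0812. For the mean of both genotypes, 4 of the 8 were then called, namely Lep, Plin4, Fabp4 and Adipoq, the last at -0.65 (adjusted p = 0.0460), whereas Plin1, Cidec and Cfd were at -0.68, -0.58 and -0.38 with adjusted p of 0.0611, 0.104 and 0.323. Without KO Sham column 3, the difference of Fabp4 was -0.25 with an adjusted p of 0.0694.

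No difference between genotypes passed the test. Between KO Sham and WT Sham, edgeR called 0 of the 8, against 0.511% of all genes tested, 0 had an unadjusted p under 0.05, against 10.8%, and DESeq2 called 0, against 1.63%. The log2 fold changes there were 0.54 for Lep, 0.23 for Pparg, -0.07 for Plin1, -0.12 for Plin4, -0.13 for Fabp4, -0.39 for Cfd, -0.40 for Adipoq and -0.70 for Cidec, with a lowest adjusted p of 0.669. Without KO Sham column 2 those of Adipoq, Plin1, Cidec and Cfd were -1.40, -1.43, -1.65 and -1.89 and that of Lep was -0.15, with 0 of the 8 called. In overloaded muscle all 8 were lower in KO MTE than in WT MTE, from -0.10 for Pparg to -1.11 for Cidec (SE 0.46) and -1.25 for Lep (SE 0.59), but edgeR called 0 of 8, against 1.47% of all genes, and DESeq2 called 0, against 3.84%. Of all genes tested 57.8% were below 0 there, as were 13 of 13 markers of fibro-adipogenic progenitors, 10 of 10 of macrophages and 9 of 11 of capillary endothelium, with 0 called in each list, and their part in the differences of the 8 was not tested. Cidec alone had an unadjusted p under 0.05, where 12.7% of all genes had one, and its adjusted p was 0.313. Fabp4 was the 1 gene of the 8 whose KO MTE and WT MTE libraries did not overlap, which held, KO being lower, for 6.74% of all genes tested, at a log2 fold change of -0.30 (SE 0.16, edgeR adjusted p = 0.452).

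The response to overload was also compared between genotypes. The interaction, the KO response minus the WT response, was below 0 for all 8 genes, where 51.6% of all genes tested were below 0. On leaving out 1 library it reached 0.96 for Adipoq, 1.05 for Plin1, 0.54 for Cidec, 0.047 for Fabp4 and 1.18 for Cfd. It was called by edgeR for 0 of the 8, where 0% of all genes tested were called. DESeq2 called it for 0 of the 8 and 0.0612% of all genes. It was largest for Lep, at -1.79 on the log2 scale (SE 0.81, edgeR adjusted p = 0.989), the 1 gene of the 8 with an unadjusted p under 0.05, where 3.51% of all genes had one, and it was nearest 0 for Adipoq, at -0.04 (SE 0.64). Averaged over surgeries, KO against WT called 0 of 8 by edgeR and by DESeq2, against 3.37% and 7.06% of all genes, with the lowest adjusted p, 0.159, for Cidec at -0.91 (SE 0.34), the 1 gene of the 8 with an unadjusted p under 0.05, where 19% of all genes had one. Without KO Sham column 2, Cidec was called there at -1.38 (adjusted p = 0.0264).

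**Figure D3:**
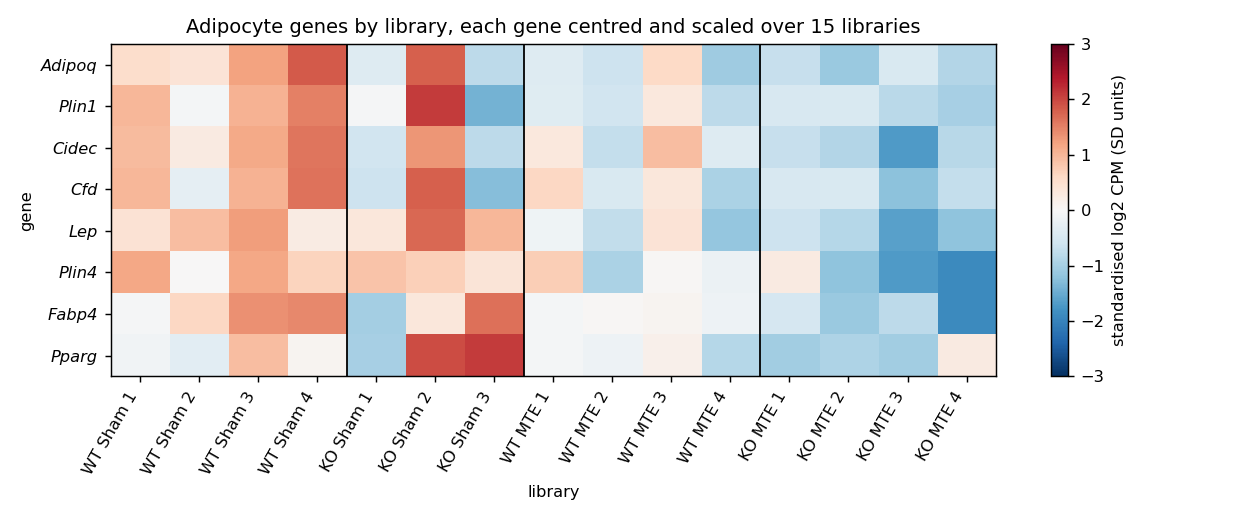
Standardised log2 CPM (colour, in SD over the 15 libraries) of the 8 adipocyte genes in rows and the libraries in columns, with lines between the groups. Adipoq, Plin1, Cidec and Cfd share their high libraries, KO Sham column 2 and WT Sham library 4, and Pparg is highest in KO Sham columns 2 and 3.

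Over the 15 libraries, Adipoq, Plin1, Cidec and Cfd went up and down together, and the other 4 genes followed them less closely. Among the MTE libraries alone this did not hold for Lep. The summed level of Adipoq, Plin1, Cidec and Cfd was 29.5, 16.0, 32.9 and 48.2 CPM in WT Sham libraries 1 to 4. It was 11.5, 51.9 and 7.78 CPM in KO Sham columns 1 to 3. It was 20.5, 11.3, 22.1 and 9.02 CPM in WT MTE and 11.1, 10.6, 8.04 and 9.56 CPM in KO MTE. The highest and the lowest library of the series were thus both KO Sham, columns 2 and 3, and the KO MTE libraries were the most alike. These 4 genes were put together after their values were seen, so the sum is a description.

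Across the 7 Sham libraries, Pearson's r of log2 CPM between pairs of these 4 genes was 0.922 to 0.976, and across the 8 MTE libraries 0.579 to 0.855. After removal of each group's mean it was 0.835 to 0.922 over the 15 libraries, and 0.648 to 0.867 without the 2 libraries farthest from the median. Lep went with them after MTE, at r = 0.720 to 0.924, and little among the Sham libraries, at 0.160 to 0.268. The MTE values span both genotypes. After removal of each group's mean r between Lep and the 4 was 0.418 to 0.628 over the 15 libraries, and 0.108 to 0.542 without the 2 libraries farthest from the median. Fabp4 correlated with the 4 at -0.089 to 0.239 in Sham and 0.453 to 0.601 in MTE, Plin4 at 0.239 to 0.463 and 0.357 to 0.725, and Pparg at about 0 to 0.129 and 0.266 to 0.576. All genes of a library share its depth and dissection, and no test was made of these correlations.

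**Figure D4:**
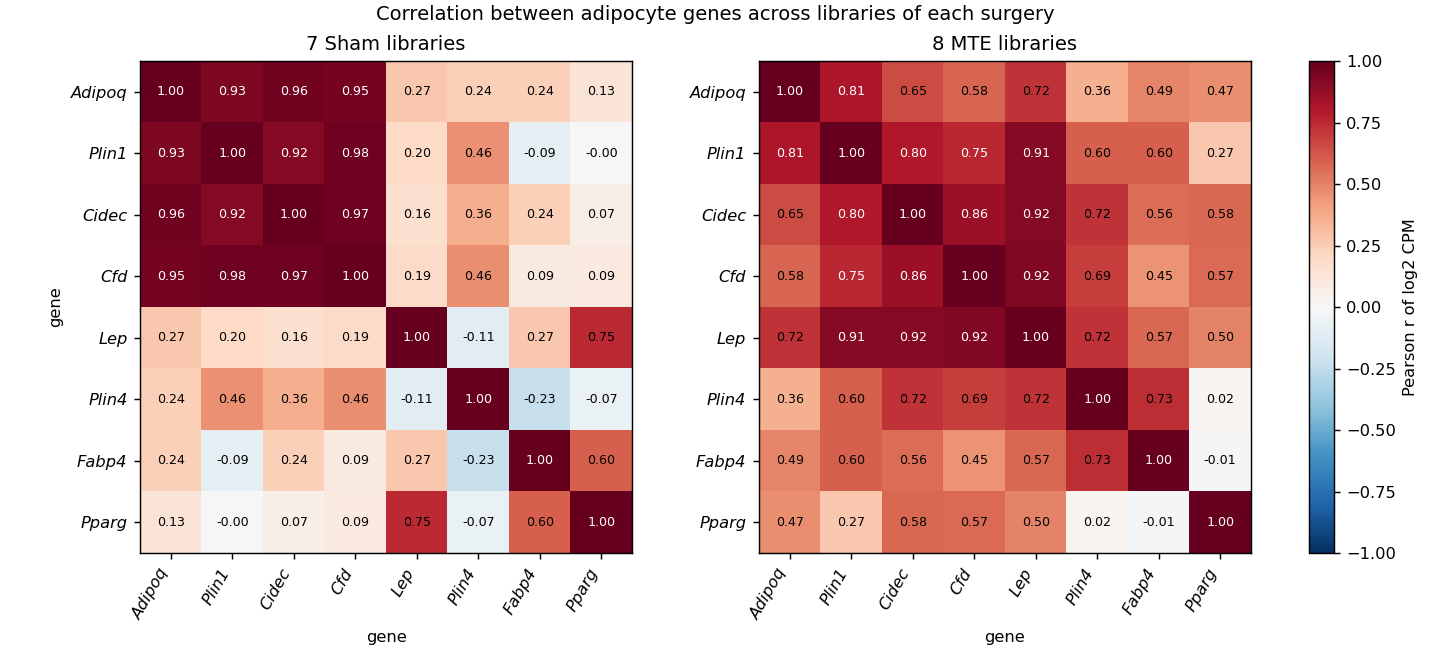
Pearson's r of log2 CPM between pairs of adipocyte genes (colour and printed value) across the 7 Sham libraries on the left and the 8 MTE libraries on the right. Adipoq, Plin1, Cidec and Cfd form a block of high r in Sham, from 0.922 to 0.976, which Lep joins in the MTE libraries.

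Of all other genes tested, the one whose log2 CPM was most like the mean standardised log2 CPM of the 8 over the 15 libraries was A530016L24Rik, at r = 0.937. It was followed by Slc27a1, a fatty acid transport protein, at 0.895, Acvr2b, an activin receptor, at 0.894, and Coq8a, which acts in coenzyme Q synthesis, at 0.884. Pfas, of purine synthesis, Klhdc7a, Gsn, which encodes the actin-severing gelsolin, Cdo1, which oxidises cysteine, Lrrc61 and the transcription factor gene Tfap4 had r of 0.853 to 0.867. Gene by gene, Pck1, the gluconeogenic and glyceroneogenic enzyme PEPCK, was nearest to Adipoq (r = 0.914) and to Plin1 (0.907), and Retn, the hormone resistin, to Cfd (0.888). Gsn was nearest to Cidec (0.877), Slc27a1 to Lep (0.929), and Pfas to Plin4 (0.919), which was also near to Perm1, a muscle gene of mitochondrial metabolism (0.905). Over these libraries r reflects the surgery as well as the libraries, and with each group's mean removed 1 of the 10 genes nearest to the mean of the 8 remained among the nearest 10.

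Further markers of adipocytes came from a list of 16, of which 13 were in the table and 11 had a log2 fold change below 0. For the mean of both genotypes, 7 fell and 1 rose of the 13 tested, against 21% of all genes lower and 23.7% higher, with a median log2 fold change of -0.63. Pck1 fell by 2.36 on the log2 scale (SE 0.49), Nnat, neuronatin, by 2.24, Acvr1c, the receptor ALK7, by 1.60, and Cyp2e1, a cytochrome P450, by 1.36, each with an edgeR adjusted p of at most 0.00653. The riser was Aoc3, an amine oxidase of fat and vessel walls, at 0.95 on the log2 scale (edgeR adjusted p = 0.00798), named here after its value was seen. Within WT 2 of the 13 fell and 1 rose, against 11.2% and 14.1% of all genes, and within KO 4 fell and 0 rose, against 12.7% and 13.2%. Tmem182, 1 of the 2 that fell in WT, and Gpd1 were also among the 7. Both are named here after their values were seen. Their mean levels were 358 and 154 CPM, where Adipoq had 4.39, and which cells carried these reads was not tested. Pck1, like the 4 genes above, was spread widely in KO Sham, from 0.551 to 8.30 CPM.

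Receptors of adiponectin, leptin and insulin and their adaptors gave calls mostly below 0. Of 8 tested, 4 fell and 1 rose for the mean of both genotypes, against 21% and 23.7% of all genes, with a median of -0.30. Adipor2 and Adipor1, receptors of adiponectin, fell by 0.59 and 0.39 on the log2 scale (edgeR adjusted p = 0.000119 and 0.00184), and Lepr, the leptin receptor, fell by 0.94 (adjusted p = 0.00342). Cdh13, T-cadherin, which binds adiponectin, rose by 0.66 (adjusted p = 0.00125). The 5 genes of the alternative complement pathway, in which adipsin acts, included 0 that fell and 1 that rose, with a median of 0.92. That median was 2.04 in KO and of the opposite sign, -0.23, in WT, where the summed level of the 5 genes was 1989 CPM in WT Sham library 1 and 236 to 339 CPM in the other WT Sham libraries. C3ar1, a receptor of a complement C3 fragment that macrophages carry, rose by 1.46 (adjusted p = 0.0272).

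Of the transcription factors of adipogenesis, 3 rose and 5 fell of 16 tested, against 23.7% and 21% of all genes, with a median of -0.24. Klf15 fell by 1.19 on the log2 scale (edgeR adjusted p = 0.000587), Ppargc1a, the coactivator PGC-1alpha, by 0.80 (adjusted p = 0.00684) and Nr2f2 by 0.55 (adjusted p = 0.00245). Zfp521 rose by 0.50 (adjusted p = 0.00573). The others that rose, named here after their values were seen, were Zfp423 by 1.01 and Ebf1 by 0.32 (edgeR adjusted p = 0.00934 and 0.0175). Of 12 relatives of the perilipins, CIDE proteins, fatty acid binding proteins and PPARs, 2 rose and 4 fell, with a median of -0.02. Fabp5 rose by 1.28 and Cidea by 1.26 (edgeR adjusted p = 4.08e-05 and 0.00606), in the opposite direction to Fabp4 and Cidec, and Plin3 fell by 0.75 (adjusted p = 0.000658) and Rxrg by 0.91 (adjusted p = 0.00149).

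The pathways of fat storage and release gave calls in both directions, as did all genes tested, of which 23.7% rose and 21% fell. In lipogenesis 5 rose and 5 fell of 15 tested, with a median of -0.09. Malic enzyme Me1 fell by 0.94, the acyltransferase Gpam by 0.65 and the lipin Lpin1 by 0.81 on the log2 scale, and the elongase Elovl5 rose by 0.60, with edgeR adjusted p between 0.000181 and 0.00201. In lipolysis 2 rose and 4 fell of 10, with a median of -0.42. Lpl, lipoprotein lipase, fell by 1.68 (adjusted p = 2.60e-05) and Angptl4, its inhibitor, rose by 2.11 (adjusted p = 0.000530), while Abhd5, the coactivator of the lipase ATGL, fell by 0.71 (adjusted p = 5.49e-05). In uptake of fatty acids and glycerol 1 rose and 5 fell of 8, with a median of -0.66, among them Slc27a1 at -1.18, Cd36, a fatty acid receptor, at -0.93 and Acsl1, which activates fatty acids, at -0.75 (edgeR adjusted p = 0.000514, 0.00173 and 0.00199). Muscle fibres express many of these genes too. Of 9 genes of brown and beige fat 3 rose and 2 fell, with Dio2, a deiodinase, up by 2.07 and Cox7a1, a cytochrome oxidase subunit also of muscle, down at -0.92 (edgeR adjusted p = 7.00e-06 and 0.000514).

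**Figure D5:**
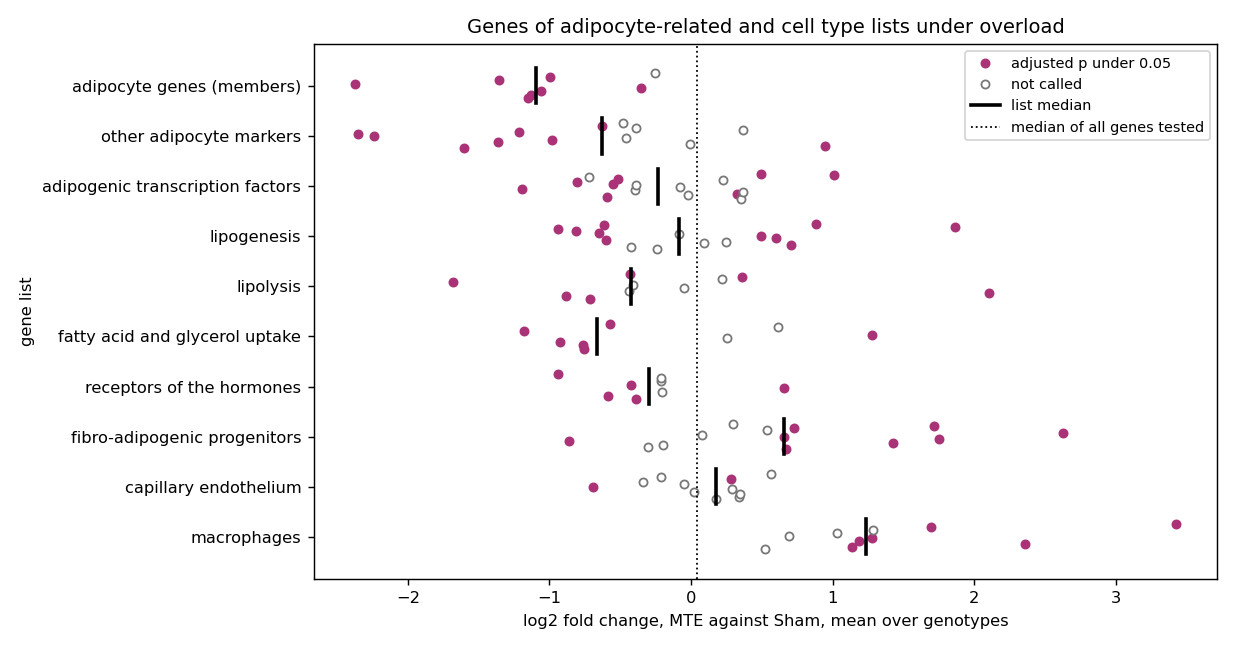
Log2 fold change of each gene, MTE against Sham averaged over genotypes, by gene list; filled points have an edgeR adjusted p under 0.05, thick bars are list medians and the dotted line is the median of all genes tested, 0.040. The adipocyte genes have the lowest median, -1.09, and the macrophage markers the highest, 1.24.

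Markers of other cells moved with surgery as well, and their part in the results above was not tested. Among all genes tested 23.7% rose and 21% fell. Of 10 macrophage markers 6 rose and 0 fell, among them Trem2 by 3.43 and Mrc1 by 1.70 on the log2 scale (edgeR adjusted p = 2.53e-05 and 4.17e-05). Their summed level was 294 to 3471 CPM in WT Sham, 152 to 321 in KO Sham, 1218 to 1697 in WT MTE and 873 to 1008 in KO MTE. Of 13 markers of fibro-adipogenic progenitors, the muscle cells that can form adipocytes, 7 rose and 1 fell, with Mfap5 up by 2.63, Lum by 1.75, Dpt by 1.43 and Pdgfra by 0.73 (edgeR adjusted p at most 0.000124) and Gsn down at -0.86 (adjusted p = 0.00550). Their summed level was 2111 to 3060 CPM in WT Sham, 1413 to 2312 in KO Sham, 1901 to 2950 in WT MTE and 1807 to 2108 in KO MTE.

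Capillary endothelium, where Fabp4 is also expressed, gave 1 rise and 1 fall among 11 markers, against 23.7% and 21% of all genes. Pecam1 rose by 0.28 and Flt1 fell by 0.70 on the log2 scale (edgeR adjusted p = 0.0122 and 0.000617), and the summed level was 476 to 524 CPM in WT Sham, 428 to 480 in KO Sham, 438 to 565 in WT MTE and 360 to 524 in KO MTE. Of 6 tendon markers 2 rose, Scx by 2.22 and Thbs4 by 1.54, and 0 fell. The summed tendon level was 634 to 1408 CPM in WT Sham, 259 to 1410 in KO Sham, 1610.0 to 2854 in WT MTE and 1581 to 1937 in KO MTE, and that of the Schwann cell markers 61.5 to 108 CPM over all groups. The summed level of 6 skeletal muscle markers was 70251 to 92469 CPM in WT Sham, 51564 to 59266 in KO Sham, 40604 to 61113 in WT MTE and 33700 to 53581 in KO MTE. Of the genes of these lists in the table, 0 were at 0 in every library of a group. Of 5 skin and liver markers, Krt10 was in the table, at 0.404 to 1.96 CPM, and it fell by 0.72 (edgeR adjusted p = 0.0394). Between genotypes, the lowest edgeR adjusted p of any gene of these lists was 0.220 in Sham and 0.0875 in MTE. Averaged over surgeries, Fabp3 alone of these lists was called, where 3.37% of all genes tested were called. It was higher in KO by 0.97 on the log2 scale (edgeR adjusted p = 0.0308).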

How the data were processed

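RNA of 15 plantaris libraries was measured as read counts per gene. The authors deposited expected counts (estimated counts) per Ensembl gene, of which 90.9% were whole to within 0.01; the file headers name them raw reads. STAR, RSEM and edgeR and build GRCm38 are listed in the submitters' processing notes, with no versions or roles. Library preparation used a stranded kit after ribosomal RNA depletion, per the labels' protocols. Per the file headers, the authors' log2 values are TMM-normalised and relative to the WT Sham mean, and were not used here. The authors' p-values come, per the file headers, from a 2-way analysis of variance and from FDR-adjusted comparisons of pairs of groups.

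The labels give 16 samples, 4 per group, and the tests were planned for all of them. The KO Sham group has 3 columns for 4 labelled samples, so these columns were assigned to the group only.

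Counts were rounded, filtered with filterByExpr by group (17212 of 17230 genes kept) and scaled by TMM. They were fitted as 4 group means with the robust quasi-likelihood model of edgeR 4.0.16 in R 4.3.3, with Benjamini-Hochberg adjustment over all genes tested and a threshold of 0.05. Each SE was derived from the log2 fold change and its F statistic. CPM uses TMM-scaled library sizes, and CPM per kb divides it by the union of exons in GENCODE for GRCm38. Correlations used log2 CPM with a prior count of 2. The test was checked on simulated counts. Alternatives were size factors by RLE, other filters, DESeq2 1.42.0, limma 3.58.1 (voom, with and without quality weights), the groups compared alone, a replicate block and libraries left out. The 2 comparisons averaged over genotype or surgery were added after values had been seen.

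The 8 genes and all lists were chosen with earlier results of these data known. All 8 genes are named. Of other lists up to 4 called genes with the smallest adjusted p are named, plus the 10 genes most like the mean of the 8 and the 3 most like each. Gene lists cover other adipocyte markers, adipogenic transcription factors, lipogenesis, lipolysis, uptake of fatty acids and glycerol, relatives of the 8, hormone receptors, brown and beige fat, alternative complement, and cells other than adipocytes. Promoters are from RefSeq on GRCm38.p6. The Fabp4 promoter was not analysed here, nor were listed genes outside the count table. A few results on genes of these lists are not reported here.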

Additional observations from a re-analysis of the deposited data

Results flagged for a closer look

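Of 39 sets of libraries tested for a single far value, 2 held one, where chance gives about 1 in 20. Pparg in KO MTE library 4 measured 5.30 CPM, and the other 3 libraries of that group measured 4.28 to 4.36, so that the gap made up 0.917 of the range. The summed level of macrophage markers in WT Sham library 1 was 3471 CPM against 294 to 401 in libraries 2 to 4 of that group, a gap of 0.966 of the range. Without WT Sham library 1 and KO Sham column 3, the 4 genes Lep, Plin1, Adipoq and Fabp4 were called lower in WT MTE than in WT Sham by edgeR, and 7 of the 8 adipocyte genes were called for the mean of both genotypes. The shares of all genes called without these libraries are not given here.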

How the results depend on the processing

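Of the results for the 8 adipocyte genes, those averaged over genotypes kept their direction under all 22 alternatives, and the number called stayed between 4 and 8 when 1 library was left out. In WT, where 0 were called, RLE size factors gave 1, DESeq2 3, voom with quality weights 3, the fit of the groups compared alone 2 and the omission of WT Sham library 1 with KO Sham column 3 gave 4, and leaving out 1 library gave 0 to 3. In KO, where 2 were called, the filter of 1 CPM in 8 libraries, which leaves Lep out, gave 1, DESeq2 6, the groups compared alone 1, the omission of both libraries 5, and leaving out 1 library 1 to 5. For KO against WT averaged over surgeries, where 0 were called, quality weights gave 2, the omission of both libraries 1, and leaving out 1 library 0 to 1. The share of all genes called also depends on the fit. In WT 11.2% were called lower by the main fit and 15.7% by DESeq2, and for the other alternatives in WT and for KO it is not given here. These counts are thus not a result about the 8 genes, and the cause of the shifts was not tested.

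With a replicate block from the label numbers, 3 genes, Lep, Plin1 and Adipoq, were called in WT. The block could be fitted on the 3 groups whose columns carry a label number. The share of all genes called with the block is not given here. Same-numbered libraries correlated at -0.111 to 0.458 after removal of group means, with 8 of 12 pairs over 0.1, and in 13 of 24 checks a library was closest to its own number, a hint from the data that some numbers are shared. Since the labels do not say what a number marks and not every pair was over 0.1, the fit without the block was kept.

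Directions that reversed belong to differences that were never called. Between KO Sham and WT Sham, the omission of both libraries gave 0.38 for Plin1, 0.076 for Plin4 and 0.053 for Cfd, quality weights gave 0.036 for Plin4 and -0.068 for Pparg, and leaving out 1 library gave -0.15 to 0.91 for Lep, -1.43 to 0.37 for Plin1, -0.35 to 0.042 for Fabp4 and -1.89 to 0.046 for Cfd. For Cfd in KO the range on leaving out 1 library was -1.73 to 0.21. For the interaction, voom gave 0.18 for Adipoq, 0.087 for Plin1 and 0.11 for Cfd, quality weights gave 0.33 for Adipoq, 0.13 for Plin1, 0.069 for Cidec, 0.12 for Fabp4 and 0.40 for Cfd, and the omission of both libraries gave 0.16 for Fabp4. Leaving out 1 library gave interactions of -0.38 to 0.96 for Adipoq, -0.75 to 1.05 for Plin1, -0.73 to 0.54 for Cidec, -0.35 to 0.047 for Fabp4 and -0.76 to 1.18 for Cfd. Averaged over surgeries, Plin1 was at 0.0089 with both libraries omitted and Pparg at -0.10 with quality weights. Of the 10 genes most like the mean of the 8, 9 were shared at a prior count of 0.5, 5 by Spearman's correlation and 1 after removal of group means. Depth limits Lep most, with 4 to 124 estimated counts per library.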

Other observations

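In the authors' deposited table, the FDR columns for WT MTE against KO MTE and for WT Sham against WT MTE hold the same value in all 17217 genes, so neither was used here.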
